A study of Mus musculus with 6 samples.

Results

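KRAB zinc finger gene clusters are long stretches of the genome in which genes for KRAB zinc finger proteins stand side by side with their pseudogenes and many repeats. Small RNA levels are described here in 3 such stretches of the mouse genome, on chromosome 2 (174.8 to 178.0 Mb), chromosome 4 (144.8 to 147.8 Mb) and chromosome 13 (62.0 to 68.5 Mb) of build GRCm39. The members are the genomic intervals of the deposited count table that lie wholly inside 1 of these stretches, so that position alone chose them. There were 5332 member intervals of 1272486 in all, of which 783 were on chromosome 2, 750 on chromosome 4 and 3799 on chromosome 13. Of these, 4467 had at least 1 read in some library. Because the intervals overlap and a read can be counted in several of them, levels and tests use a set of non-overlapping intervals, which held 302 members (44, 54 and 204) of 88352.

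The libraries hold small RNA of 15 to 36 nt from testis germ cells, labelled spermatogonia, of C57BL/6 mice. They came from wild-type (WT) mice and from Dnmt3l knockout (KO) mice, which lack the protein that assists de novo DNA methylation without an active enzyme domain of its own. At postnatal day 0 (P0), enriched germ cells gave 1 WT and 1 KO library. At postnatal day 8 (P8), THY1+ cells enriched for spermatogonial stem cells gave 2 WT and 2 KO libraries. No other allele or agent is given for any group, and the labels do not give the origin of the replicates (separate animals, pools or repeat preparations), so p-values reflect the spread between libraries alone, and that spread may be technical. The table names no genes. Neither the knockout nor the germ cell identity could therefore be checked against marker genes, and in bulk libraries fewer cells of a type and less RNA per cell cannot be told apart.

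KRAB zinc finger proteins bind DNA through arrays of zinc fingers, and many of them recognise sequences of transposable elements. Their KRAB domain recruits TRIM28, which brings in SETDB1 and other factors that mark the bound chromatin for silencing. The genes arose by repeated local duplication, which left families of similar genes, pseudogenes and repeats next to each other. In male germ cells, small RNAs of this size range include microRNAs and piRNAs, and piRNAs direct the silencing of transposons. By the gene order of RefSeq on GRCm38.p6, used for names only, the chromosome 2 stretch between Edn3 and Phactr3 holds 80 genes, of which 32 are protein-coding and 9 have a Zfp symbol. Between Dhrs3 and Miip on chromosome 4 there are 87 genes, of which 21 are protein-coding, 16 have a Zfp symbol and 56 are pseudogenes. From Zfp808 to Zfp273 on chromosome 13 there are 198 genes, with 74 protein-coding genes, 29 Zfp symbols, 68 pseudogenes and 5 microRNA genes. Each stretch thus also holds protein-coding genes without a Zfp symbol. Gene models and sequence of GRCm39 were not used here, so no interval is assigned to a gene, exon, intron, repeat or UTR.

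The clusters were more thinly covered by the deposited intervals than the rest of their chromosomes. Intervals covered 7.72% of the chromosome 2 cluster, 17.2% of the chromosome 4 cluster and 23.0% of the chromosome 13 cluster. In the rest of chromosomes 2, 4 and 13 they covered 37.4%, 36.1% and 35.3%. The cluster intervals were also shorter, with median lengths of 445, 557 and 665 bp against 958, 1009 and 921 bp in the rest. The chromosome 13 cluster nevertheless held 584 intervals per Mb, more than the 499.7 per Mb of the rest of that chromosome. The clusters on chromosomes 2 and 4 held 245 and 250 per Mb against 553 and 548. The unbroken region made of the most overlapping intervals, 1275 of them, lay in the chromosome 13 cluster, against at most 525 in a region of the rest.

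Small RNA levels are given in CPM, counts per 1000000 reads of the non-overlapping set scaled by factors from the trimmed mean of M-values (TMM), computed over the 6 libraries. The libraries had 4370402 to 6119824 reads in that set. The chromosome 2 cluster carried less small RNA per Mb than its surroundings at both ages, and per covered length it lay below them at P8 and near them at P0. On chromosome 2 the cluster had 45.4 CPM per Mb in WT P0 and 62.9 in KO P0, then 17.7 and 18.4 in WT P8, then 36.3 and 35.6 in KO P8. The rest of chromosome 2 lay between 284 and 529 CPM per Mb in the same libraries, so the cluster was below it in all 6. Per covered kb, which removes the thinner coverage, the cluster had 0.588 and 0.814 CPM at P0 against 0.758 and 0.784 in the rest, and at P8 0.230 to 0.471 against 1.25 to 1.41.

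On chromosome 4 the position of the cluster relative to its surroundings differed between the ages. The cluster had 616 CPM per Mb in WT P0 and 652 in KO P0 against 276 and 310.1 in the rest of the chromosome. At P8 it had 278 in both WT libraries and 349 and 355 in the KO libraries, against 576 to 598 in the rest. Per covered kb the P0 levels were 3.57 and 3.78 CPM against 0.765 and 0.860, and the P8 levels 1.61 to 2.06 against 1.60 to 1.66. On chromosome 13 the cluster lay above the rest in every library. It had 239 and 323 CPM per Mb at P0 and 373 to 391 at P8. The rest had 203 and 246 at P0 and 248 to 330.03 at P8. At P8 this rested on 1 interval, which held 43.9% to 56.3% of the cluster's reads. Without it the P8 sums were 1113 CPM in WT and 1372 in KO over 6.5 Mb, below the rest per Mb.

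**Figure D1:**
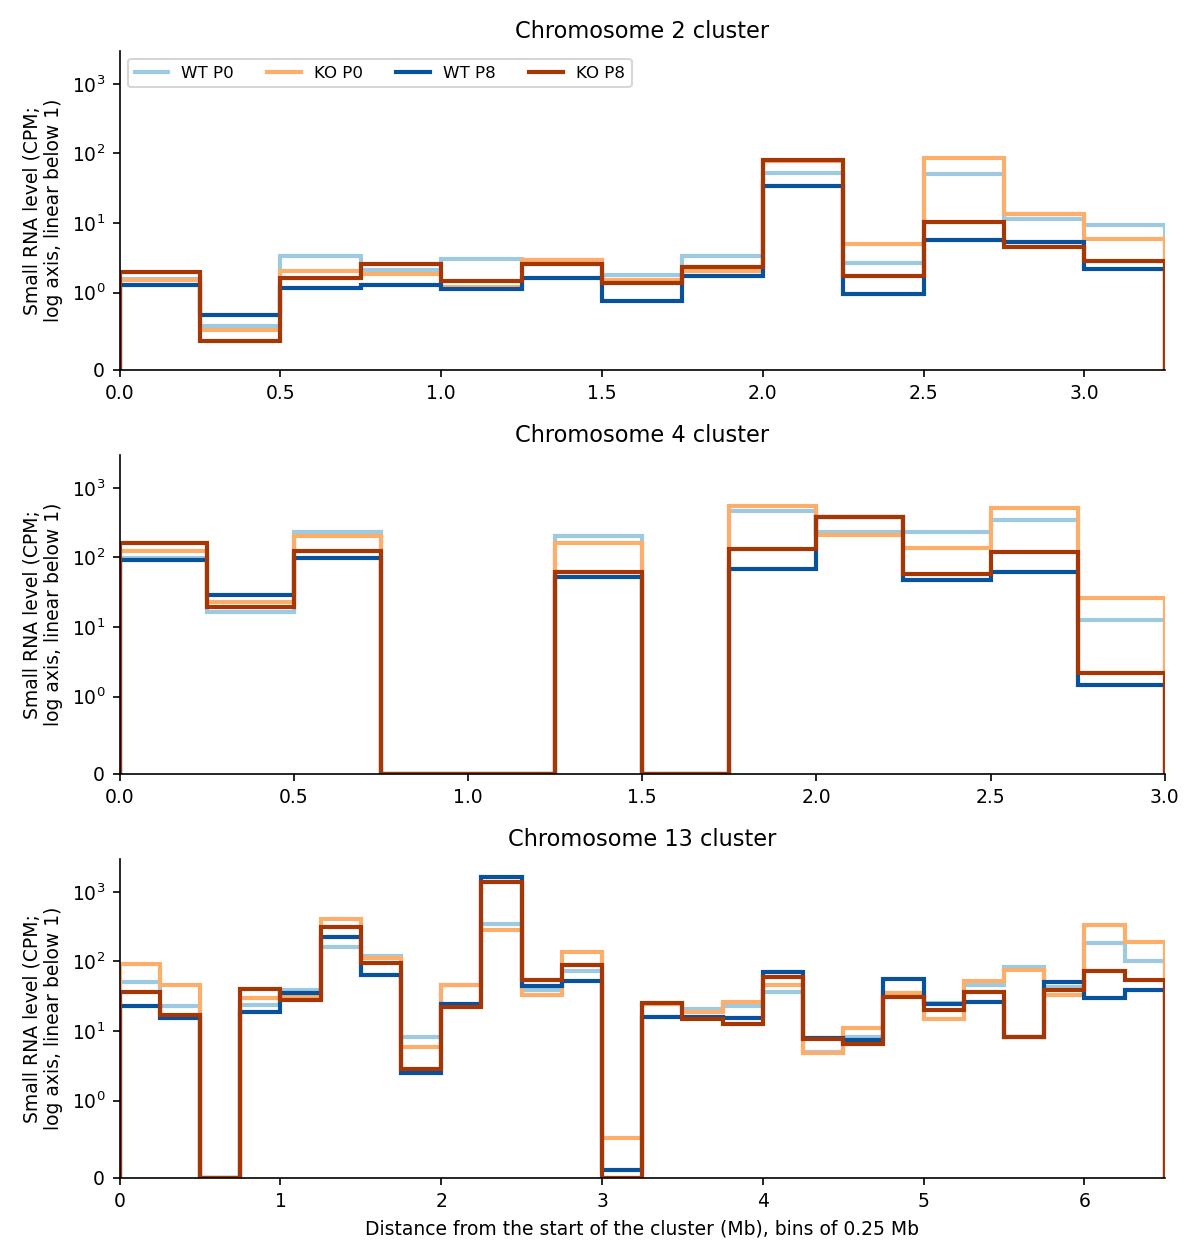
Small RNA level (CPM, log axis that is linear below 1) along each cluster in bins of 0.25 Mb, against the distance in Mb from the cluster's start, with 1 line for each group and P8 lines drawn at the mean of 2 libraries. The chromosome 2 signal sits in 2 bins that begin at 2.0 and 2.5 Mb, and the highest chromosome 13 bin begins at 2.25 Mb and stands at 1661 CPM for WT P8 and 1387 CPM for KO P8 against 342 and 288 CPM in WT P0 and KO P0.

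Within a cluster the reads came from few places, as the plot of levels along each cluster shows. The 5 intervals with most reads are those with the highest mean CPM over all 6 libraries. They are the same in every library, so in a given library other intervals can stand higher. These 5 held 64.0% to 79.4% of the reads of the chromosome 2 cluster across the libraries. On chromosome 4 the 5 held 54.1% to 60.5% of the cluster's reads. On chromosome 13 they held 33.7% and 46.5% in WT P0 and KO P0 and 63.0% to 67.6% at P8, a contrast that depends on this choice of intervals. Empty 0.25 Mb bins, with no deposited interval of the set, were found on chromosome 4 at 0.75, 1.0 and 1.5 Mb and on chromosome 13 at 0.5 Mb from the start of the cluster. The bins with most small RNA on chromosome 2 lay between 2.0 and 2.75 Mb from its start.

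At P8 the clusters on chromosomes 2 and 4 had more small RNA in KO than in WT, and the chromosome 13 sum differed little, with a direction that depended on its leading interval. The sum over the chromosome 2 cluster was 145 CPM in WT P0, 201 in KO P0, 56.8 and 58.9 in the WT pair at P8, then 116 and 114 in the KO pair. The chromosome 4 cluster summed to 1847 CPM in WT P0, 1956 in KO P0, 835 in both WT P8 libraries, then 1048 and 1065 in the KO pair. The chromosome 13 cluster summed to 1555 CPM in WT P0 and 2097 in KO P0, to 2539 and 2525 in the WT pair at P8, then 2512 and 2422 in the KO pair. On chromosomes 2 and 4 the KO and WT libraries at P8 did not overlap and lay far apart relative to the spread within a genotype. On chromosome 13 they did not overlap either, but the nearest WT and KO libraries differed by less than the 2 KO libraries did.

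The cluster sums were tested together with 1 Mb windows of the rest of the genome in edgeR's quasi-likelihood test, with Benjamini-Hochberg (BH) adjustment. This fit takes its TMM factors from the windows of the 4 P8 libraries, so its changes are not the ratios of the CPM printed beside them, which were 1.99, 1.27 and 0.974 on chromosomes 2, 4 and 13. The fitted log2 fold change of KO against WT at P8 was 0.87 ± 0.08 (SE) on chromosome 2, from 57.8 ± 1.54 CPM in WT to 115 ± 1.61 in KO (SD, n = 2 each), with an adjusted p of 2.58e-05 in edgeR. On chromosome 4 it was 0.21 ± 0.04, from 835 ± 0.365 to 1057 ± 12.4 CPM, with an adjusted p of 0.00298 in edgeR. On chromosome 13 it was -0.17 ± 0.04, from 2532 ± 9.91 to 2467 ± 63.5 CPM, with an adjusted p of 0.0107 in edgeR. When the factors behind the printed CPM were used in the same fit, an alternative chosen after seeing the data, the changes were 0.99, 0.34 and -0.04, and the chromosome 13 call was lost (adjusted p 2.43e-05, 0.000206 and 0.457 in edgeR). Such calls were common: 31.4% of the 2345 windows and clusters were called higher and 32.1% lower, so that a call alone does not set a cluster apart.

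Each cluster sum depended on the interval with most reads, which is named its leading interval. Without it the fitted chromosome 13 difference changed direction, to 0.18 ± 0.04 (adjusted p 0.00629 in edgeR). The remaining intervals of that cluster came to 1113 ± 4.36 CPM for WT at P8 and to 1372 ± 17.7 CPM for KO (SD over 2 libraries each), a CPM ratio of 1.23. With its leading interval left out, chromosome 4 went from 473 ± 30.8 to 699 ± 9.18 CPM, a ratio of 1.48, with a fitted difference of 0.43 ± 0.06. For chromosome 2 the ratio was 2.25 and the fitted difference 1.04 ± 0.09. The chromosome 13 difference was also not called when total counts replaced TMM (-0.09, adjusted p 0.0769 in edgeR).

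**Figure D2:**
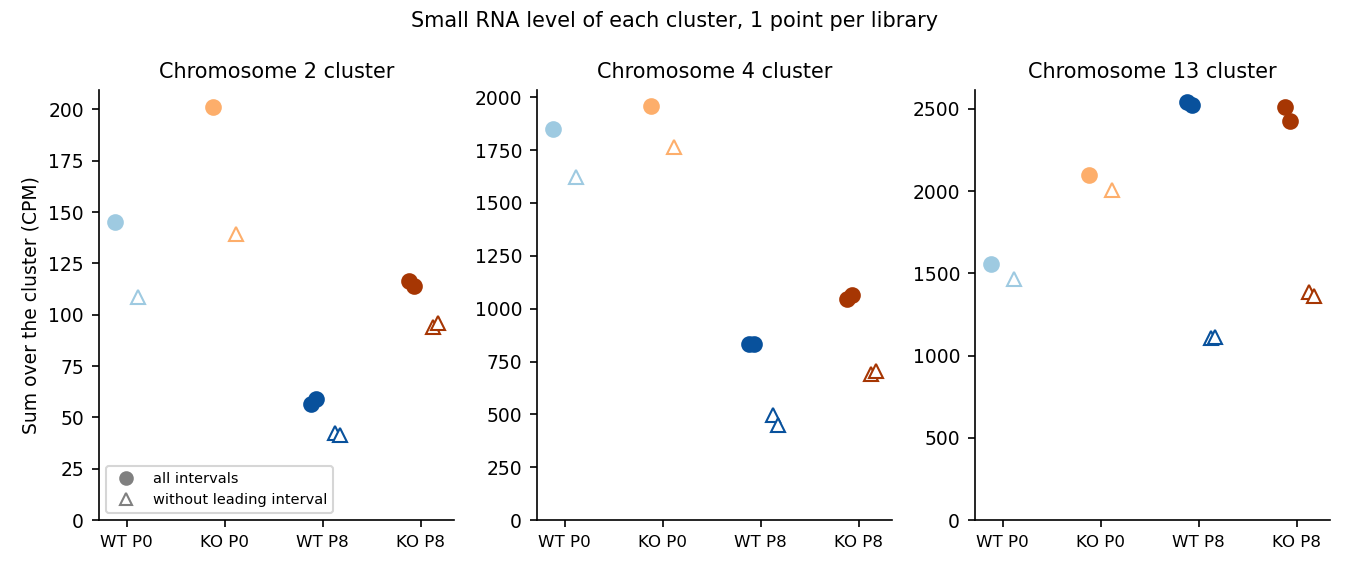
Sum over the non-overlapping intervals of each cluster (CPM, axis from 0), with 1 point for each library, filled for all intervals and open without the leading interval. On chromosome 13 the filled points of the P8 libraries lie at 2422 to 2539 CPM with KO no higher than WT, while the open KO points (1360 and 1385 CPM) lie above the open WT points (1109.6 and 1116 CPM).

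Relative to the rest of the same chromosome, the chromosome 2 cluster had 0.0701% ± 0.00133 of the rest's reads in the WT pair at P8 and 0.127% ± 0.00513 in the KO pair (SD, n = 2 each). The chromosome 4 cluster held 0.948% ± 0.0208 in WT P8 and 1.19% ± 0.0400 in KO P8. The chromosome 13 cluster held 9.13% ± 0.113 in WT P8 and 6.74% ± 0.190 in KO P8. The differences of 0.0565, 0.243 and -2.39 percentage points each had p = 0.333 in a two-sided exact permutation test, the smallest that 2 against 2 libraries can give. Without the leading interval the chromosome 13 shares were 4.01% ± 0.0181 and 3.75% ± 0.0578, so on this scale KO stayed below WT while the CPM sum was higher in KO. The rest of chromosome 13 itself had 248 and 251 CPM per Mb in the WT pair at P8 against 329 and 330.03 in the KO pair.

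Among single intervals tested at P8, more were higher in KO than lower. Of the 302 members, 99 had enough reads to be tested, 6 on chromosome 2, 28 on chromosome 4 and 65 on chromosome 13. In KO, 29 of the 99 (29.3%) were called higher and 8 (8.08%) lower at an adjusted p under 0.05 in edgeR. Over the whole genome the same rule called 22.5% of 23200 intervals higher and 20.1% lower. The median log2 fold change was 0.17 over the 99 members and -0.01 over all tested intervals. Across every deposited member interval, overlapping ones included, 339 of 1036 were called higher and 90 lower, where the whole table gave 22.9% higher and 21.0% lower.

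The counts differed in size between the clusters, and that difference was not tested. On chromosome 4, 13 of 28 tested intervals were called higher and 2 lower, with a median of 0.50, while the rest of the chromosome had 345 higher and 347 lower of 1562 and a median of -0.06. The chromosome 13 cluster had 14 higher and 6 lower of 65, with a median of 0.05 (rest of the chromosome: 239 higher and 129 lower of 878, median 0.13). On chromosome 2, 2 of 6 were called higher and 0 lower in edgeR, with a median of 0.45 (rest of the chromosome: 440 higher and 353 lower of 1790, median -0.01). Intervals that passed the read filter only through the genotype in which they are high had to differ, so these counts describe the tested intervals and not all members.

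**Figure D3:**
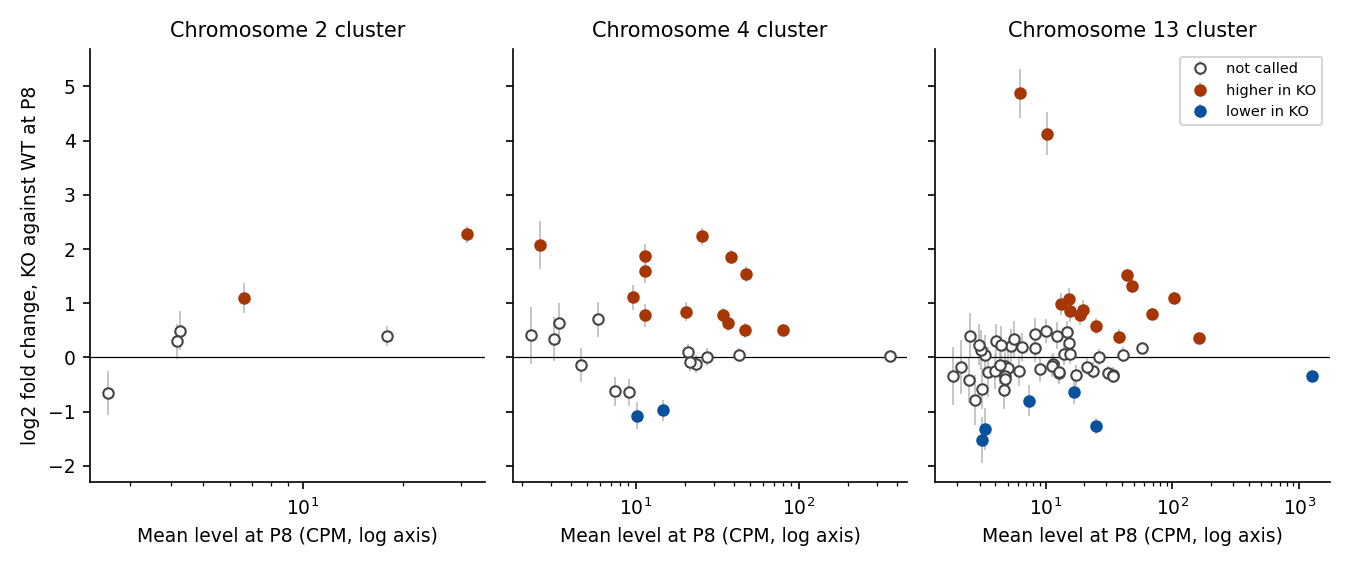
Log2 fold change of KO against WT at P8 (bars are the SE) against the mean level over the 4 P8 libraries (CPM, log axis) for the tested intervals of each cluster, coloured by the edgeR call. On chromosome 4 the called intervals are mostly above 0 (13 of 15), and on chromosome 13 the interval with the highest level lies below 0 at -0.34.

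On chromosome 2 most of the P8 difference came from 1 short interval. The interval chr2:176849765-176849967, 203 bp long, had 1.69 CPM in WT P0 and 2.90 in KO P0, 11.8 and 9.996 in the WT pair at P8, then 52.9 and 50.7 in the KO pair. Both KO P8 libraries stood above all others, and the P0 libraries held only 15 and 17 reads. KO was 4.75-fold above WT at P8 (log2 fold change 2.27 ± 0.15, adjusted p 1.94e-07 in edgeR). This interval made up 71.3% of the 57.3 CPM by which the cluster sum in KO exceeded that in WT. Without it the cluster summed to 44.9 and 48.9 CPM in the WT P8 libraries and 63.4 and 63.3 CPM in the KO P8 libraries, a ratio of 1.35. That value was computed after the interval had been seen and was not tested.

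The leading interval of the chromosome 2 cluster, chr2:176943102-176947701, had 36.7 CPM in WT P0, 62.0 in KO P0, 14.1 and 17.3 in WT P8, then 22.4 and 18.1 in KO P8. The P8 genotypes lay next to each other without overlap, and the log2 fold change of 0.40 was not called (adjusted p 0.110 in edgeR), though it was without KO P8 replicate 2 (0.55, adjusted p 0.0389 in edgeR). The other interval called at P8, chr2:177541638-177545792, was mainly a P0 locus, with 48.9 CPM in WT P0 and 81.8 in KO P0 against 4.57 and 3.96 in WT P8, then 8.36 and 9.64 in KO P8. Its log2 fold change at P8 was 1.099 ± 0.27 (adjusted p 0.00649 in edgeR), and the call was lost with DESeq2 (adjusted p 0.101) and without WT P8 replicate 2 (adjusted p 0.0536 in edgeR). The remaining 2 of the 5 intervals with most reads, chr2:176897657-176911410 and chr2:177001124-177001415, had at most 11.0 CPM in any library and log2 fold changes at P8 of 0.49 and 0.30, neither called.

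In the chromosome 4 cluster, by contrast, the leading interval was not called at P8 and 15 others were. The leading interval, chr4:147016831-147028645 (11815 bp), had 223 CPM in WT P0 and 193 in KO P0, 340.0 and 383 in WT P8, then 355 and 360.0 in KO P8. The KO P8 values lay between the WT P8 values, and the log2 fold change was 0.02 ± 0.09 (adjusted p 0.905 in edgeR). It held 40.7% and 45.9% of the cluster's reads in the WT pair at P8 and 33.9% and 33.8% in the KO pair. The 13 intervals called higher summed to 246 CPM more in KO than in WT, which is more than the 222 CPM by which the whole cluster differed. The 2 called lower summed to 17.2 CPM less.

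The intervals with most reads after the leading one were higher in KO at P8, like most of the called set. The interval chr4:146588105-146595216 had 189 CPM in WT P0 and 357 in KO P0, 27.6 and 21.4 in WT P8, then 71.3 and 69.0 in KO P8. The interval chr4:147304736-147309213 had 179.8 CPM in WT P0 and 320.3 in KO P0, 17.1 and 16.5 in WT P8, then 59.0 and 59.8 in KO P8. In both, KO stood above WT at both ages without overlap at P8, and P0 stood above P8 in both genotypes. Their log2 fold changes at P8 were 1.54 ± 0.14 and 1.85 ± 0.13 (adjusted p 3.15e-06 and 3.71e-07 in edgeR). The interval chr4:146175525-146200680 differed at P0, with 199.5 CPM in WT and 152 in KO, but again had less in WT P8 (42.9 and 35.4) than in KO P8 (56.8 and 51.7). Its log2 fold change at P8 was 0.50 ± 0.13 (adjusted p 0.0101 in edgeR). That call was lost with DESeq2 (adjusted p 0.0646), with no read filter (adjusted p 0.0799 in edgeR) and without WT P8 replicate 2 (0.34, adjusted p 0.152 in edgeR). The log2 fold change of chr4:146663928-146695879, the next in reads, was 0.77 ± 0.14 (adjusted p 0.000961 in edgeR).

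Larger fold changes on chromosome 4 were found at lower levels. The interval chr4:144941219-144948412 had 11.5 CPM in WT P0 and 4.60 in KO P0, 9.52 and 8.54 in WT P8, then 40.3 and 43.3 in KO P8. Here the KO P8 libraries were the only high ones, and KO P0 was the lowest of all. The P8 log2 fold change was 2.23 ± 0.16, a 4.63-fold difference (adjusted p 3.87e-07 in edgeR). At chr4:145366753-145368319 the levels were 54.0 CPM in WT P0, 33.6 in KO P0, 5.33 and 4.58 in WT P8, then 17.2 and 18.5 in KO P8. The P8 change was 1.87 ± 0.22 on the log2 scale (adjusted p 2.95e-05 in edgeR), with the genotypes in the opposite order at P0.

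Both chromosome 4 intervals called lower in KO had more small RNA at P8 than at P0 in WT. The interval chr4:147147176-147151551 had 2.59 CPM in WT P0 and 1.36 in KO P0, 14.5 and 13.1 in WT P8, then 7.62 and 5.19 in KO P8 (log2 fold change -1.07 ± 0.24, adjusted p 0.00365 in edgeR, and 0.0520 with DESeq2). The interval chr4:145063290-145080637 had 6.31 CPM in WT P0, 8.01 in KO P0, 19.6 in both WT P8 libraries, then 10.1 and 9.40 in the KO pair (log2 fold change -0.98 ± 0.19, adjusted p 0.00131 in edgeR). In each, both KO P8 libraries lay below both WT P8 libraries.

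The chromosome 13 cluster was dominated at P8 by its leading interval, chr13:64332817-64358932, which is 26116 bp long. It had 88.3 CPM in WT P0 and 89.6 in KO P0, 1429.6 and 1409 in the WT pair at P8, then 1128 and 1063 in the KO pair. On this scale the P0 libraries were alike, and all P8 libraries were at least 10 times higher. With total counts in place of TMM its log2 changes with age were smaller, at 3.25 in WT and 2.92 in KO. The KO P8 libraries were below the WT P8 libraries without overlap. Its log2 fold change at P8 was -0.34 ± 0.06 (adjusted p 0.00101 in edgeR), a difference of -324 CPM. It held 56.3% and 55.8% of the cluster's reads in the WT pair at P8 and 44.9% and 43.9% in the KO pair, against 5.67% in WT P0 and 4.27% in KO P0. None of the 8 deposited intervals nested in it held more than 0.208% of its reads, so the signal was not placed more finely by the table.

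The 14 chromosome 13 intervals called higher in KO summed to 324 CPM more in KO. The 6 called lower, the leading interval among them, summed to 363 CPM less, and the 45 not called to 30.6 CPM less. The directions of the sums over called intervals followed from the calls. Of the intervals called higher, chr13:63278918-63299613 had the highest mean over all 6 libraries. It had 119 CPM in WT P0 and 362 in KO P0, 65.1 and 67.9 in WT P8, then 139.6 and 139.5 in KO P8. Nearly all of its reads (99.5%) fell in a nested deposited interval of 10993 bp, chr13:63287943-63298935. KO was above WT at both ages, and the P8 log2 fold change was 1.099 ± 0.11 (adjusted p 4.52e-06 in edgeR). The interval chr13:68032944-68041504 was also high at P0, with 166 CPM in WT and 302 in KO, then 23.2 and 22.9 in WT P8, then 63.4 and 65.5 in KO P8. Its P8 log2 fold change was 1.51 ± 0.13 (adjusted p 1.35e-06 in edgeR).

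Other well-covered intervals on chromosome 13 were also called higher in KO at P8. The interval chr13:64978609-64983917 had 72.2 CPM in WT P0, 137 in KO P0, 52.4 and 50.2 in WT P8, then 88.5 and 85.8 in KO P8 (log2 fold change 0.79 ± 0.11, adjusted p 0.000108 in edgeR). The interval chr13:64398512-64410032, in the same 0.25 Mb bin as the leading interval, had 79.2 CPM in WT P0, 84.7 in KO P0, 145 and 141 in WT P8, then 187 and 173 in KO P8. It was called higher in KO (0.36 ± 0.10, adjusted p 0.0117 in edgeR). That call was lost with no read filter, over every deposited interval, and without KO P8 replicate 1 or either WT P8 library (adjusted p 0.0545, 0.0780, 0.0556, 0.0914 and 0.112 in edgeR). The interval chr13:63689144-63721485 had equal levels at P0 within counting error (85.3 CPM in WT and 87.7 in KO), and 30.1 and 25.0 in WT P8 against 67.1 and 68.2 in KO P8 (log2 fold change 1.32 ± 0.13).

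The 2 highest fold changes of the cluster were at very short intervals with few reads in WT. The interval chr13:62960723-62961084 (362 bp) had 10.2 CPM in WT P0, 13.8 in KO P0, 0.952 and 1.25 in WT P8, then 24.3 and 14.1 in KO P8. The WT P8 values rest on 5 and 6 reads, the 2 KO P8 libraries differ from each other, and both stand above WT P8. It passed the read filter through the KO libraries alone, so its test is not given. A further interval, chr13:63369402-63369679 (278 bp), fell below the level of 10 CPM set for naming and was picked after its values were seen. It had 0.338 CPM in WT P0, 0.682 in KO P0, 0.571 and 0.208 in WT P8, then 13.8 and 10.6 in KO P8, so that only the KO P8 libraries held more than 4 reads.

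Besides the leading interval, 5 chromosome 13 intervals were called lower in KO at P8. Among them chr13:66927590-66930034 had 4.84 CPM in WT P0, 2.04 in KO P0, 35.2 and 35.8 in WT P8, then 15.5 and 13.4 in KO P8. KO lay below WT at both ages, with a P8 log2 fold change of -1.27 ± 0.16 (adjusted p 3.74e-05 in edgeR). The interval chr13:63659344-63677000 had 13.3 CPM in WT P0, 8.52 in KO P0, 20.2 and 20.8 in WT P8, then 10.1 and 15.6 in KO P8 (log2 fold change -0.65 ± 0.21, adjusted p 0.0267 in edgeR). This call was lost with DESeq2 (adjusted p 0.173), with no read filter (adjusted p 0.182 in edgeR) and without either WT P8 library (adjusted p 0.114 in edgeR for each). The change was -0.37 without KO P8 replicate 1, where it was not called (adjusted p 0.222 in edgeR), and -0.99 without KO P8 replicate 2. The remaining 45 tested intervals of this cluster had log2 fold changes between -0.78 and 0.48 that were not called.

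At P0 there was 1 library of each genotype and hence no test, and ratios carry exact conditional binomial 95% intervals that cover counting error only. The KO to WT ratio of the cluster sums was 1.38 (1.28 to 1.499) on chromosome 2, from 1291 reads in WT and 1181 in KO before scaling. It was 1.06 (1.03 to 1.08) on chromosome 4 and 1.35 (1.32 to 1.38) on chromosome 13. The chromosome 4 ratio fell below 1 (log2 ratio -0.03) when total counts replaced TMM. As a percentage of the rest of the chromosome the chromosome 2 cluster held 0.292% in WT and 0.391% in KO, the chromosome 4 cluster 4.45% and 4.19%, and the chromosome 13 cluster 6.88% and 7.68%.

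Of the 69 member intervals with at least 100 reads over the 2 P0 libraries, KO exceeded WT by 2-fold or more at 5 and fell short of it by that much at 4, counting only intervals that exclude 1. The whole genome gave 9.84% higher and 4.34% lower of 14108, and these counts compare 2 libraries and not the genotypes. The largest ratio was 3.03 (2.82 to 3.27), at chr13:63278918-63299613. The interval chr4:147303889-147304467, beside the interval at 147304736 described above, had 34.6 CPM in WT P0 and 75.0 in KO P0, a ratio of 2.17 (1.87 to 2.52). The others named by ratio were chr13:62441498-62443112 (2.23, 1.80 to 2.77) and chr4:147720877-147724577 (2.02, 1.53 to 2.67). The former had about equal levels at P8, with 14.5 and 12.9 CPM in WT and 14.0 and 13.8 in KO.

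Lower levels in KO at P0 were most marked at chr4:147271040-147272812, with 47.7 CPM in WT and 15.8 in KO, 3.01-fold lower (2.40 to 3.81). At chr13:67207136-67214237 the level was 2.74-fold lower in KO (1.79 to 4.34), and at chr4:144941219-144948412 it was 2.50-fold lower (1.62 to 3.97). The interval chr13:64297558-64304259 had 117 CPM in WT P0 and 59.6 in KO P0, 1.96-fold lower (1.74 to 2.22). At P8 this last interval had 27.8 and 24.8 CPM in WT and 24.8 and 27.2 in KO, with overlapping groups and a log2 fold change of 0.01.

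On chromosome 4 the direction at P0 was often the opposite of that at P8, which rests on separate libraries. All 13 intervals called higher in KO at P8 had at least 100 reads at P0. Their P0 interval lay above 1 in 4, below 1 in 8 and held 1 in the other. Of the chromosome 13 intervals called higher at P8, 13 had as many P0 reads, and 5 lay above 1, 0 below 1 and 8 held 1. Outside the 3 clusters, 3652 intervals were called higher at P8 and had as many P0 reads, of which 42.1% lay above 1 and 22.6% below 1. The difference between these shares was not tested. The 4 chromosome 4 intervals that were higher in KO at both ages included both with the highest P0 levels in KO, chr4:146588105-146595216 at 1.89 (1.77 to 2.02) and chr4:147304736-147309213 at 1.78 (1.67 to 1.91).

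**Figure D4:**
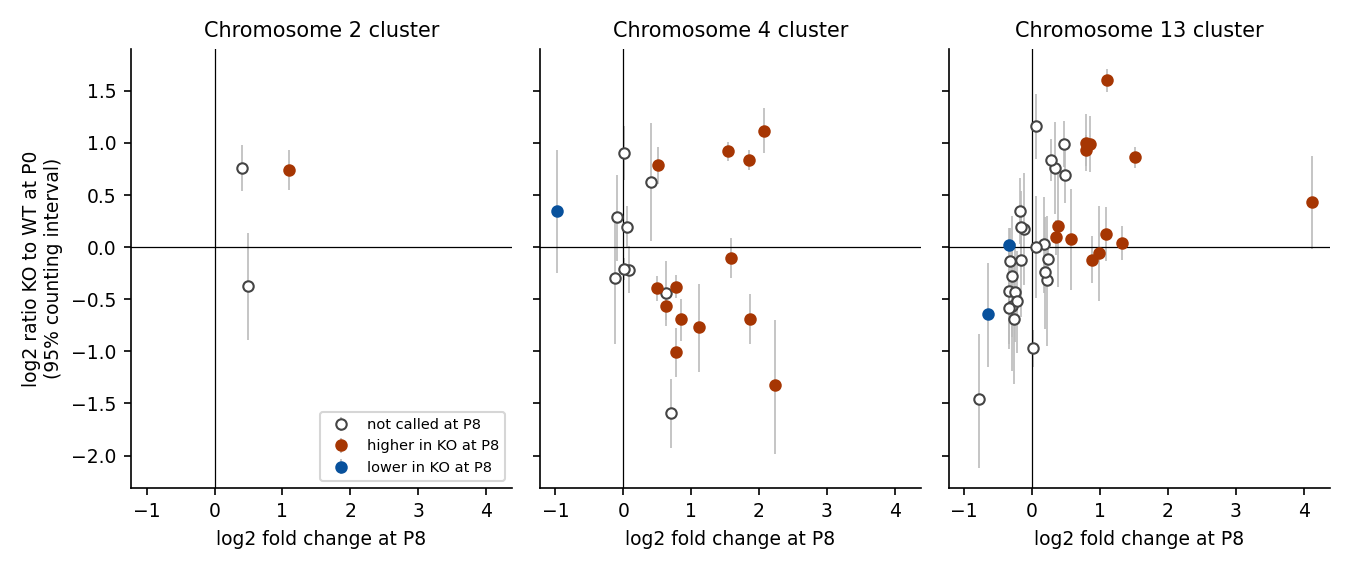
Log2 ratio of KO to WT at P0 (bars are 95% counting intervals) against the log2 fold change at P8, for intervals of each cluster tested at P8 and with at least 100 P0 reads, coloured by the P8 call. On chromosome 4, 8 of the 13 intervals called higher at P8 lie below 0 at P0, and on chromosome 13 none of the 13 lies below 0 with its counting interval.

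Between P0 and P8 small RNA levels fell on chromosomes 2 and 4 in both genotypes. Each P0 group is 1 library, assumed to vary like the P8 libraries, and age goes together with the way the cells were enriched, so the 2 cannot be told apart. In WT the cluster sums changed by a log2 of -1.25 ± 0.09 on chromosome 2 and -1.06 ± 0.05 on chromosome 4 (adjusted p 7.69e-06 and 6.49e-07 in edgeR), with a median of -0.13 over all windows. In KO the changes were -0.67 ± 0.09 and -0.76 ± 0.05 (adjusted p 0.000251 and 4.16e-06 in edgeR), with a median window of -0.05. On chromosome 2 the KO fall was -0.22 and not called (adjusted p 0.122 in edgeR) when the non-overlapping set was built from the shortest intervals first. These changes are scaled by the windows of all 6 libraries and not by the factors of the printed CPM. Of 2521 windows and clusters, 37.1% rose and 42.4% fell in WT, while 38.5% rose and 38.9% fell in KO.

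For chromosome 13 the direction with age depended on the scaling and on the leading interval. Its sum had a log2 change of 0.78 ± 0.06 in WT and 0.37 ± 0.05 in KO, or 0.70 and 0.23 with the factors of the printed CPM. Without the leading interval these were -0.32 ± 0.05 and -0.42 ± 0.05, and with total counts they were -0.05 and -0.46. Total counts moved the median window to -0.97 in WT and -0.87 in KO. Another scaling shifts all windows by about the same amount, so it cannot test where the cluster lies against the median. On either scale the whole chromosome 13 cluster lay above the median window. Without its leading interval it lay below the TMM median windows of -0.13 in WT and -0.05 in KO. Relative to the rest of its chromosome, the cluster without its leading interval went from 6.49% in WT P0 to 4.01% in WT P8 and from 7.35% in KO P0 to 3.75% in KO P8.

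In the fit across ages 164 member intervals were tested. Intervals that passed the read filter only through the age at which they are high had to differ. The counts below therefore describe the tested intervals and not all members. WT showed 35 rises and 72 falls between the ages, and KO 31 rises and 66 falls. Over the genome, of 37627 intervals, 29.4% rose and 38.5% fell in WT, while 26.4% rose and 31.2% fell in KO. When total counts replaced TMM the members showed 22 rises and 94 falls in WT, and 19 rises and 87 falls in KO, and the genome median moved from -0.47 to -1.22 in WT and from -0.27 to -0.95 in KO. Member medians were -0.85 in WT and -0.75 in KO with TMM. By cluster, the counts in WT were 1 higher and 7 lower of 17 on chromosome 2, 8 and 19 of 37 on chromosome 4, and 26 and 46 of 110 on chromosome 13.

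Where the mean level was 10 CPM or more and the change was called, the largest falls with age were at loci already described as P0 loci and at 1 further chromosome 13 interval. The interval chr4:147303889-147304467 went from 34.6 CPM in WT P0 to 1.14 and 0.833 in WT P8, and from 75.0 CPM in KO P0 to 4.92 and 3.46 in KO P8. These are log2 changes of -5.09 ± 0.27 and -4.15 ± 0.21 (adjusted p 3.11e-06 and 3.04e-06 in edgeR), and the WT P8 values rest on 6 and 4 reads. The interval chr13:67524989-67531559 fell to a like extent in both genotypes, from 76.1 CPM in WT P0 and 70.2 in KO P0 to between 2.67 and 3.69 CPM in the P8 libraries. Its log2 changes were -4.76 ± 0.19 in WT and -4.44 ± 0.20 in KO. On chromosome 2 the largest fall was at chr2:177541638-177545792, with -3.51 ± 0.18 in WT and -3.18 ± 0.16 in KO.

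Under the same limits, the largest rise with age in WT was that of the leading chromosome 13 interval, at 4.01 ± 0.09 (adjusted p 1.10e-07 in edgeR), and it rose by 3.61 ± 0.09 in KO. In KO the largest rise was at chr13:64364045-64389033, in the bin of the leading interval, with 2.59 CPM in WT P0, 1.87 in KO P0, 37.7 and 43.7 in WT P8, then 42.0 and 40.6 in KO P8. The genotypes overlapped at P8 there, and the log2 changes were 3.96 ± 0.23 in WT and 4.44 ± 0.27 in KO. On chromosome 4 the leading interval rose by 0.70 ± 0.11 in WT and 0.89 ± 0.11 in KO relative to TMM scaling, while with total counts the changes were -0.06 in WT and 0.20 in KO, neither called (adjusted p 0.634 and 0.134 in edgeR). The interval chr4:144941219-144948412 rose in KO by 3.18 ± 0.22 (adjusted p 1.58e-05 in edgeR), against -0.34 ± 0.20 in WT (adjusted p 0.154 in edgeR). The genotype by age term of the same fit was 3.52 ± 0.30 for this interval. It was named for its high P8 ratio and its low P0 ratio, so a large term followed from the choice and its test is not given. With total counts the KO rise of this interval was 2.49. Total counts moved the genome median in WT from -0.47 to -1.22, so the small WT change rests on TMM scaling.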

How the data were processed

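Small RNA of 15 to 36 nt was sequenced in 6 libraries. The file deposited by the authors gives raw counts of reads in 1272548 intervals, identified by GRCm39 coordinates alone. The tools listed in the submitters' processing notes are Bowtie 1.1.1, TopHat2 2.1.1, bedtools, cutadapt 1.13 and FastQC 0.10.1. What each was used for, how multi-matching reads were placed and where the intervals come from is not given in the sources used here, and in clusters of similar genes and repeats the placing of such reads can set an interval's level. Repeated coordinates (62) had identical counts and were merged.

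A non-overlapping set was built genome-wide, taking intervals by mean CPM over all 6 libraries. The P8 genotypes were tested in edgeR 4.0.16 in R 4.3.3 (filterByExpr, TMM, glmQLFit, glmQLFTest, two-sided, BH adjustment, threshold 0.05) over all intervals of the set. Contrasts between ages and their interaction with genotype used 1 fit to all 6 libraries. Cluster sums were fitted with 1 Mb windows of the rest of the genome, with TMM factors from these windows and not from the interval set that scales the printed CPM and P0 ratios. The SE was taken as the size of the log2 change over the square root of its F statistic. In the interval fit at P8 the 2 residual degrees of freedom were joined by a prior of 9.99, and the common biological coefficient of variation was 0.109. The cluster fit at P8 had 2 as well, with a prior of 6.48 and a coefficient of 0.0759. Across ages the priors were 5.46 for intervals and 5.12 for clusters, with coefficients of 0.110 and 0.0759. The same fits were run on simulated counts with a single fixed spread and no broad change between the ages. Their outcome is not given here, and such counts cannot test the scaling between ages. Reads carry no molecular identifiers, so counting intervals may be too narrow. The P8 replicates differed beyond sampling noise (chi-square over degrees of freedom: 3.24 in WT, 3.76 in KO), and 1 batch label is shared by all libraries.

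Coordinates are counted from 1. In each cluster the intervals named are the 5 with most reads; the 3 highest and 3 lowest P8 changes called at a mean of at least 10 CPM with KO and WT libraries apart; the 2 highest and 2 lowest P0 ratios with at least 100 reads and an interval that excludes 1; and the largest called rise and fall with age in each genotype at a mean of at least 10 CPM. This gave 31. Members and rules were chosen with earlier results of these data known. The alternatives were other scaling, DESeq2 1.42.0, no read filter, leaving out replicates, a replicate block, a set built from the shortest intervals first, every deposited interval, other cluster edges, wider windows and leaving out the leading interval.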

Additional observations from a re-analysis of the deposited data

Results flagged for a closer look

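With all libraries, the difference between KO and WT in the cluster sum was called different between the ages in each of the 3 clusters, by the genotype by age term of the edgeR quasi-likelihood fit (BH-adjusted). The fit scales by the windows of all 6 libraries, so the values below are not the P8 change minus the P0 log2 ratio of the text, which have other scaling factors. On chromosome 2 the log2 difference was more positive at P8 than at P0 by 0.57 ± 0.13 (SE, adjusted p 0.0103 in edgeR). On chromosome 4 it was more positive by 0.31 ± 0.07 (adjusted p 0.0115 in edgeR), and on chromosome 13 more negative, at -0.42 ± 0.08 (adjusted p 0.00398 in edgeR). Among all 2521 windows and clusters 21.9% were called more positive and 19.6% more negative, so such calls are common. Each P0 group is 1 library, assumed to vary like those of P8. On chromosome 13 the interaction was -0.11 (adjusted p 0.287 in edgeR) without the leading interval, which had about equal levels in both genotypes at P0 and was lower in KO at P8. On chromosome 2 it was 0.86 ± 0.14 and on chromosome 4 0.49 ± 0.09 without their leading intervals. With the factors of the printed CPM the interactions were 0.52, 0.26 and -0.47 on chromosomes 2, 4 and 13 (adjusted p 0.0139, 0.0215 and 0.00168 in edgeR). Leaving out WT P8 replicate 1 or WT P8 replicate 2 ended the calls on chromosomes 2 and 4, as did DESeq2 (adjusted p 0.0997 and 0.0729). With the shortest-first set the calls were lost on chromosome 4 (adjusted p 0.133 in edgeR) and chromosome 13 (0.025, adjusted p 0.917 in edgeR).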

How the results depend on the processing

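The clusters' own calls at P8 held on chromosomes 2 and 4 under every alternative run. However, none of these runs left out the short interval that made up 71.3% of the chromosome 2 difference. Whether the chromosome 2 call holds without that interval (CPM ratio 1.35) was therefore not tested. The leading intervals left out on chromosomes 2 and 4 had small changes of their own (0.40 and 0.02). Leaving them out raised the cluster changes, to 1.04 and 0.43. On chromosome 13 the call did not hold under every alternative. There the P8 change of -0.17 became -0.086 with total counts, -0.037 (not called) with the factors of the printed CPM, 0.17 (adjusted p 0.0722 in edgeR) with the shortest-first set and 0.18 without the leading interval. With age the chromosome 13 change of 0.78 in WT became -0.051 with total counts, 0.036 with the shortest-first set and -0.32 without the leading interval, and that of 0.37 in KO became -0.46, 0.060 and -0.42. The chromosome 2 change in KO became -0.22 with the shortest-first set and was not called (adjusted p 0.122 in edgeR). The interaction became 0.53 (adjusted p 0.0997) on chromosome 2 and 0.26 (adjusted p 0.0729) on chromosome 4 with DESeq2, 0.24 on chromosome 4 and 0.025 on chromosome 13 with the shortest-first set, and -0.11 on chromosome 13 without the leading interval. Without 1 P8 library it ranged from 0.55 to 0.59 on chromosome 2 (adjusted p 0.0541 and 0.0543 in edgeR without WT P8 replicates 1 and 2), from 0.29 to 0.31 on chromosome 4 (0.0630 and 0.0731) and from -0.45 to -0.39 on chromosome 13. P0 log2 ratios became 0.66 on chromosome 2 (shortest first), -0.029, 0.12 and 0.41 on chromosome 4 (total counts, no leading interval, shortest first) and 0.32, 0.28 and 0.37 on chromosome 13 (total counts, shortest first, edges moved in by 0.25 Mb), from 0.47, 0.08 and 0.43.

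Counts of called members moved more. At P8 the lower count of 8 of 99 tested was 13 of 99 with total counts and 3 of 99 with DESeq2. It was 4 of 272 with no filter and 3 of 57 with the shortest-first set. Over the genome total counts called 5370 of 23200 intervals lower. Every deposited interval gave 339 higher and 90 lower of 1036, against 56632 and 51910 of 247642 over the whole table. Without 1 P8 library the counts ranged from 22 to 29 higher and 5 to 9 lower, with 22 without WT P8 replicate 2 and 5 without WT P8 replicate 1. With age, every interval of the whole table gave 128804 higher and 158990 lower of 401718 in WT, and 114091 and 127868 in KO. With total counts 7411 of 37627 were higher over the genome in WT and 6465 in KO. Shares over the genome are not given here for the other settings, and the number tested differs between them. Among members with age in WT, total counts gave 22 higher of 164, and DESeq2 17 higher and 33 lower of 164. The shortest-first set gave 20 higher of 130, and every interval 463 higher and 593 lower of 1661. With age in KO the counts of members were 19 higher, 18 and 25, 18 higher, and 297 and 562, of as many tested. Without 1 library they ranged in WT from 24 to 38 higher and 40 to 74 lower (40 and 41 without WT P8 replicates 1 and 2), and in KO from 23 to 32 and 46 to 65. At P0 the higher count of 5 was 3 with total counts and 10 with at least 50 reads, and the lower count of 4 was 2 with at least 200 reads, 3 alternatives chosen after seeing the data, as were the factors of the printed CPM. The leading chromosome 4 interval, not called at P8 (0.02), was -0.064 with total counts, -0.090 without WT P8 replicate 1, 0.078 without WT P8 replicate 2 and -0.12 in the fit to every interval. With age in WT it was -0.057 with total counts, and chr13:63659344-63677000 was -0.13. The cause of these shifts was not tested.

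Replicate numbers at P8 are shared by WT and KO, but the labels do not say that they pair. Deviations of the same-numbered libraries correlated at 0.341 across 10579 intervals, and there are 2 pairs only. With the replicate block edgeR called 31 of 99 tested members higher and 11 lower at P8, and the share over the genome is not given for it. The cluster changes were 0.87, 0.21 and -0.17, with no cluster call changed. No paired analysis was possible for the contrasts with age because the P0 libraries carry no number. The depth of 4370402 to 6119824 reads left 203 of the 302 members untested at P8.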
